A study of Mus musculus with 8 samples.

Results

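The 40 cell cycle and proliferation genes described here were taken by name from the deposited table of assembled loci in whole mouse aorta, and all 40 were found among its 48607 loci. Where a symbol stood on several loci the one with the most counts was kept, which concerned Bub1 alone. All 40 had a mean of at least 10 counts per library and were tested together with 31983 loci in all. The locus of Top2a also carried the name Gm23451, that of Foxm1 Tex52, Gm44596 and Nrip2, that of Mybl2 Ift52, and that of Mcm7 Mir25, Mir93 and Mir106b, so reads of these neighbours cannot be separated from the 4 genes.

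The paper describes RNA sequencing of entire aortas from 5 mice of each genotype. The deposited data hold 8 libraries, of which 5 are titled ApoE-/- and 3 NPRC-/-ApoE-/-. Mice of both groups lack apolipoprotein E, which makes them prone to atherosclerosis, and had eaten a Western diet for 12 weeks. The NPRC-/-ApoE-/- mice in addition lack the natriuretic peptide receptor C in every tissue through a CRISPR frameshift in exon 1 of Npr3. They were derived by crossing NPRC-/- mice with ApoE-/- mice, and were compared with ApoE-/- littermates. The methods describe the purchased ApoE-/- mice of the study as males aged 8 weeks at purchase, and do not repeat age or sex for the littermates that were sequenced. For 4 of the 8 libraries the title and the genotype entry name different genotypes. ApoE-/- 4 and 5 are entered as Nprc-/-Apoe-/-, and NPRC-/-ApoE-/- 1 and 2 are entered as Apoe-/-. Each comparison was therefore made by title and again by genotype entry, and every library is called by its title and number. Npr3 ranged from 29.7 to 70.9 CPM (counts relative to library size, scaled by TMM) in the libraries titled ApoE-/- and from 51.5 to 61.3 CPM in those titled NPRC-/-ApoE-/-. Apoe ranged from 24.8 to 33 CPM and from 26 to 35.7 CPM, and the groups overlapped for both transcripts under either label. A frameshift need not change the level of a transcript, so Npr3 is no check of the labels. The total count per library lay between 62969165 and 86693276.

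A dividing cell copies its DNA in S phase and separates the copies in mitosis. Entry into S phase is driven by E2F transcription factors, which switch on cyclin E, the MCM helicase that licenses replication origins, and the enzymes that make deoxynucleotides. Genes of G2 and mitosis, such as those for cyclin B, CDK1, the Aurora and Polo-like kinases and the kinesins of the spindle, peak later. They are switched on through B-Myb, the MuvB complex and FOXM1. In the normal adult aorta few cells divide, and in atherosclerotic plaques dividing cells include macrophages and smooth muscle cells.

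Promoter sequence was found for 33 of the 40 genes in the RefSeq table of the mouse build GRCm38.p6. Each entry spans 300 bases, of which 250 lie before the transcription start. It was searched on both strands for CCAAT, the box bound by NF-Y, for TTTGAA, the core of the cell cycle homology region of mitotic promoters, and for the E2F-type letters TTTCGCGC, TTTGGCGC and TTTCCCGC. CCAAT occurred in 26 of the 33 (78.8%) against 41.1% of 27025 gene symbols in the table, and TTTGAA in 15 (45.5%) against 20.2%. Among the 19 genes of mitosis and general proliferation TTTGAA was present in 14 (73.7%), and among the 13 of G1/S and DNA synthesis in 1, Mcm2 (7.69%). At least 1 of the E2F-type motifs occurred in 6 of these 13 (46.2%), namely Cdc6, Mcm3, Mcm5, Mcm6, Mcm7 and Uhrf1, and in 2.12% of all symbols. In the members' promoters 6 of 96 matches overlapped the match before them, and the median GC content was 58.5% against 52.7% over the whole table. No letters of any of the 5 motifs were found in the windows of Mybl2, Ccne1, Tyms, Tk1, Birc5 and Nusap1.

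Shown here are 150 bases each from before the start of the gene, with motif letters in capitals, for genes on which the results turn. Mki67 is the general marker, Cdk1 and Ube2c were among the genes that varied most between libraries, Kif23, Uhrf1 and Mcm2 had the smallest p by title, Rrm2 was past a 2-fold difference, and Mcm6 differed least between the groups. A sequence on the minus strand is written 5′ to 3′ in the direction of the gene, and CCAAT on the opposite strand reads ATTGG and TTTGAA reads TTCAAA. In Mcm6 a TTTGGCGC and a reversed TTTCGCGC share 4 letters. The printed stretch is only part of the searched window, so counted motifs can lie outside it or, for Uhrf1, in its other promoter entry. The E2F-type match counted for Uhrf1 and the TTTGAA counted for Kif23 and Ube2c are not in the printed stretches.
Mki67, chr7:135716380-135716529, minus strand: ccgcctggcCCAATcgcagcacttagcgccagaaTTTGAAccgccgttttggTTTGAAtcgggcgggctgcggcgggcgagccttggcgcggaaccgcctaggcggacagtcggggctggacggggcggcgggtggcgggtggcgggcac
Cdk1, chr10:69352939-69353088, minus strand: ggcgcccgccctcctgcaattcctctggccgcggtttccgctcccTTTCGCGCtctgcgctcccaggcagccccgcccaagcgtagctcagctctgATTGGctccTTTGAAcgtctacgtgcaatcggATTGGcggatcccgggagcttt
Ube2c, chr2:164769748-164769897, plus strand: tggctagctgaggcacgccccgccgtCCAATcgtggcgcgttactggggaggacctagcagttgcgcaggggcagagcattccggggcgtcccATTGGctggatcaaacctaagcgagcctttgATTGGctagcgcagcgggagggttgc
Kif23, chr9:61946800-61946949, minus strand: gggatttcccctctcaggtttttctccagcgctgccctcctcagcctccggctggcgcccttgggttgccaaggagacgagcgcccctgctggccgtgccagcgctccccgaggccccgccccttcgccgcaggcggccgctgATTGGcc
Uhrf1, chr17:56303171-56303320, plus strand: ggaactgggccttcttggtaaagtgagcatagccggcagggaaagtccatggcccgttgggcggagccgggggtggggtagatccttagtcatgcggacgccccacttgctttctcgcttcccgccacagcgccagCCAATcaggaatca
Mcm2, chr6:88898781-88898930, minus strand: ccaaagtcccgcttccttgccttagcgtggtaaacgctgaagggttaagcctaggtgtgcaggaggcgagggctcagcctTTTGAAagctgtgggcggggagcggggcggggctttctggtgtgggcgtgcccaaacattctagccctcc
Rrm2, chr12:24708091-24708240, plus strand: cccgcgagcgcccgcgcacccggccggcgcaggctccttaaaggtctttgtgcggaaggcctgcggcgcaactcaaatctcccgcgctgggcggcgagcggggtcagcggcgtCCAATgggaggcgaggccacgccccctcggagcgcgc
Mcm6, chr1:128359706-128359855, minus strand: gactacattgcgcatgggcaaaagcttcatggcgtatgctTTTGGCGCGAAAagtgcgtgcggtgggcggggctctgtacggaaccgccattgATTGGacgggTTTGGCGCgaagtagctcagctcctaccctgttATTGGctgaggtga

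The genes were measured at low levels per length. Levels between genes are compared in FPKM, the deposited level, which takes account of transcript length and library depth. Pcna, the sliding clamp of DNA polymerase, was the most abundant with a median of 10.2 FPKM over the 8 libraries (7.25 to 15.48), followed by the helicase subunit Mcm6 with 5.92 FPKM (5.2 to 7.21). The other MCM genes had medians between 0.985 FPKM (Mcm2) and 3.38 FPKM (Mcm4), with 2.46 for Mcm3, 2.38 for Mcm7 and 1.66 for Mcm5. Mki67, the antigen of cycling nuclei, had 1.6 FPKM and Top2a, the topoisomerase that untangles replicated DNA, 1.84 FPKM. Of the 15 genes of G1/S, licensing and DNA synthesis 11 had a median of at least 1 FPKM, against 2 of the 21 genes of mitosis, Ccna2 (1.64) and Cdc20 (1.54). Low medians among the mitotic genes were, for example, 0.545 FPKM for Cdk1, 0.435 for Birc5, 0.225 for the kinetochore motor Cenpe and 0.21 for the kinetochore protein Cenpf. Most replication genes thus stood above most mitotic genes per unit of length, while Ccne1 (0.345) and the licensing factor Cdc6 (0.235) were as low as the latter. Only 21 of the 40 genes reached 1 FPKM in at least 3 libraries. The smallest count of any of the genes was that of Ube2c in NPRC-/-ApoE-/- 2, at 10.

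**Figure D1:**
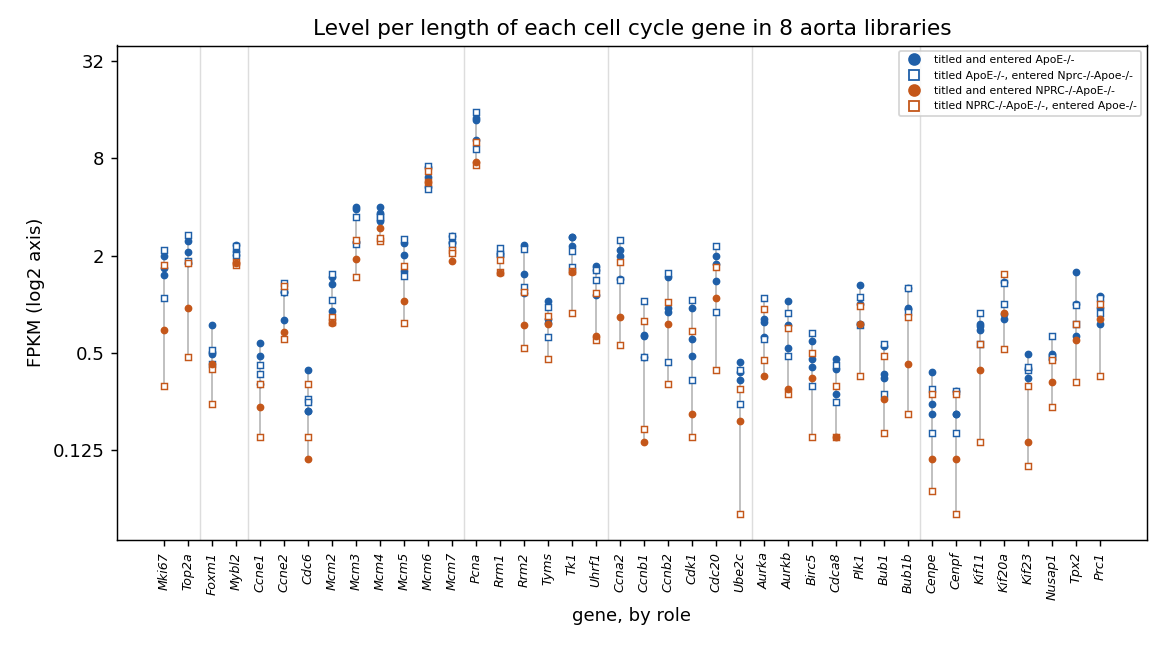
Level per length (FPKM, log2 axis) of each of the 40 genes, with 1 point per library and a grey line from the lowest to the highest, ordered by role. Pcna (median 10.2) and Mcm6 (5.92) stand highest, and the open orange square of NPRC-/-ApoE-/- 2 is at the bottom of most lines.

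Most of the 40 genes went up and down together between libraries. The mean log2 CPM over the 40 genes was 2.90 in ApoE-/- 4, 2.85 in ApoE-/- 3, 2.55 in ApoE-/- 2, 2.42 in NPRC-/-ApoE-/- 1, 2.30 in ApoE-/- 1, 2.11 in ApoE-/- 5, 1.83 in NPRC-/-ApoE-/- 3 and 1.21 in NPRC-/-ApoE-/- 2. ApoE-/- 4 held the highest value for 22 genes and ApoE-/- 3 for 11, and NPRC-/-ApoE-/- 2 held the lowest for 34. The median Pearson correlation between 2 members over the 8 libraries was 0.825, and 720 of 780 pairs were above 0.5, where the points share libraries and scaling. The helicase subunit Mcm6 was least like the others, with a mean correlation of 0.258. In whole tissue, fewer dividing cells and less of these transcripts per cell cannot be told apart.

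**Figure D2:**
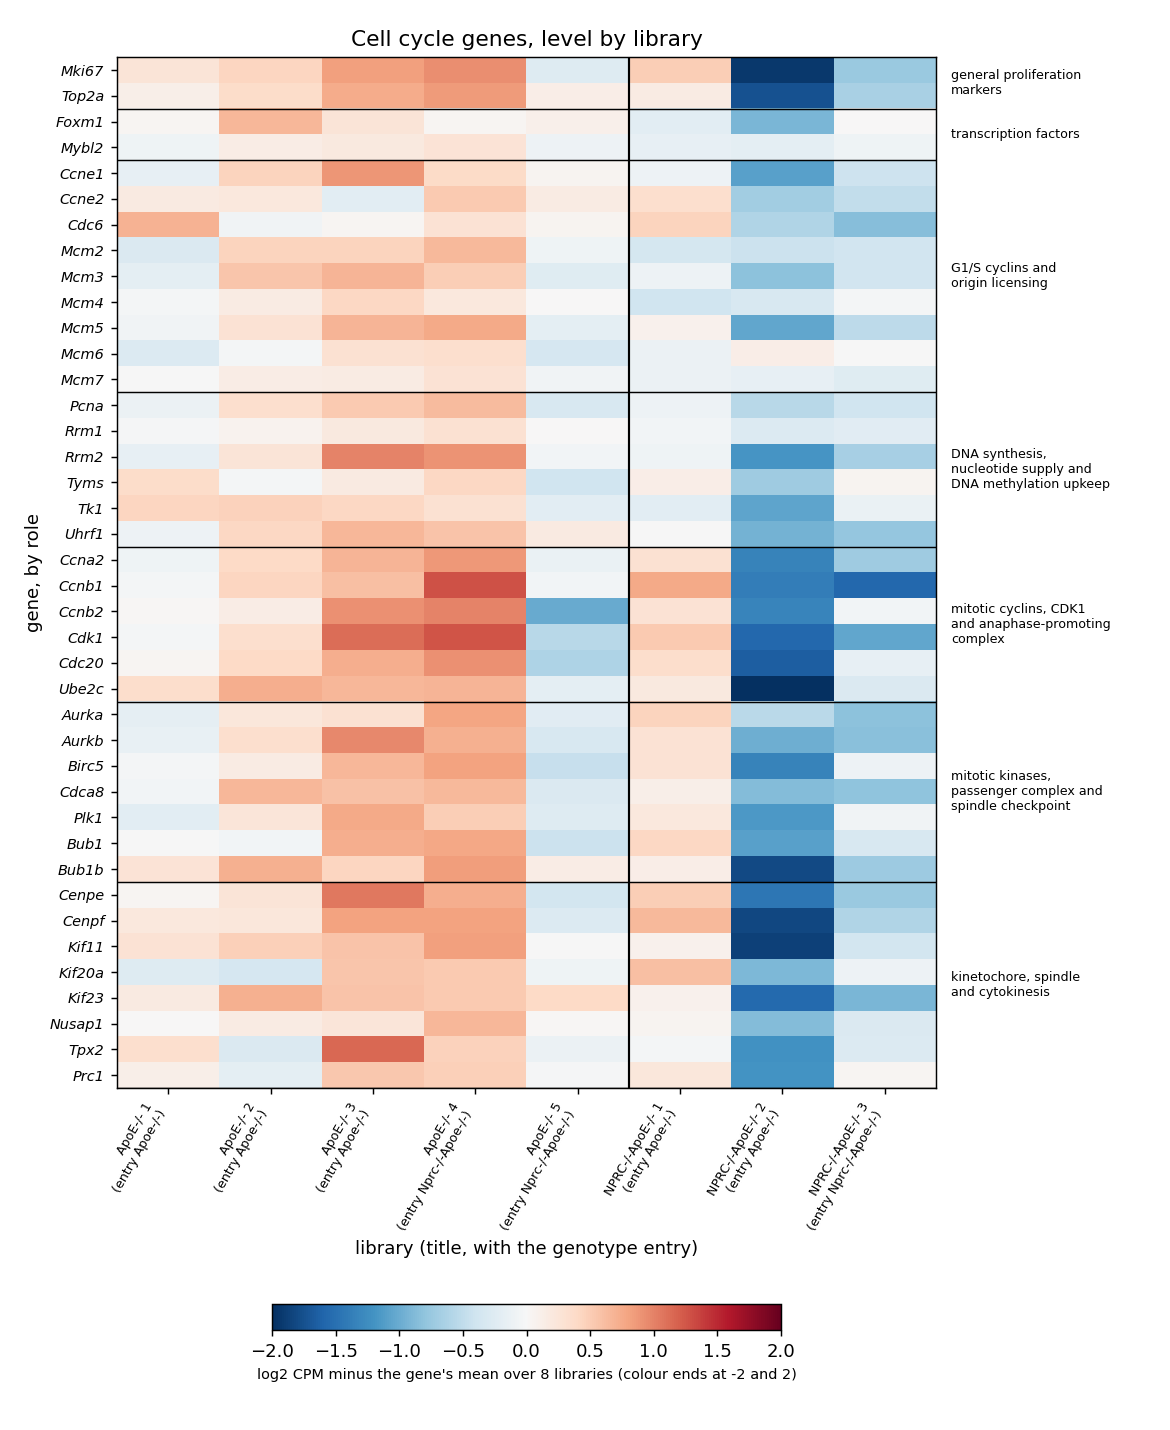
Log2 CPM of each of the 40 genes minus the gene's mean over 8 libraries, as colour (red above, blue below), with genes in rows by role and libraries in columns by title and genotype entry. The column of NPRC-/-ApoE-/- 2 is blue in nearly all rows and holds the lowest value for 34 genes, while ApoE-/- 3 and 4 hold the highest for 33 together.

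The size of this variation differed between the role groups. The ratio of the highest to the lowest library had a median of 3.6 over the 40 genes. For the 6 genes of mitotic cyclins, CDK1 and the anaphase-promoting complex the median was 6.68, with 8.53 for Ube2c, the E2 enzyme that works with that complex, 7.41 for Ccnb1, which encodes cyclin B1, and 7.28 for its partner kinase Cdk1. The 8 genes of kinetochore, spindle and cytokinesis had 5.05, and the 7 mitotic kinase and checkpoint genes 3.86. The 9 genes of G1/S cyclins and origin licensing had a median of only 2.34, and the 6 genes of DNA synthesis 2.57. The narrowest ranges belonged to Mybl2 (1.4), Mcm7 (1.44), Rrm1 (1.5) and Mcm6 (1.58), and both Mybl2 and Mcm7 are measured on loci with other gene names.

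The level of the mitotic cyclin group showed the same order of libraries as all 40 genes, with NPRC-/-ApoE-/- 1 and ApoE-/- 2 almost level (1.65 and 1.66 mean log2 CPM). Its mean was 2.25 in ApoE-/- 4 and 2.03 in ApoE-/- 3, against 0.82 in ApoE-/- 5, 0.61 in NPRC-/-ApoE-/- 3 and -0.32 in NPRC-/-ApoE-/- 2. The licensing group spanned only 3.24 in ApoE-/- 4 to 2.24 in NPRC-/-ApoE-/- 2. In all 7 role groups NPRC-/-ApoE-/- 2 was the lowest library, and NPRC-/-ApoE-/- 1 was inside the range of the libraries titled ApoE-/- in 6 of them, the exception being the pair of transcription factors.

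**Figure D3:**
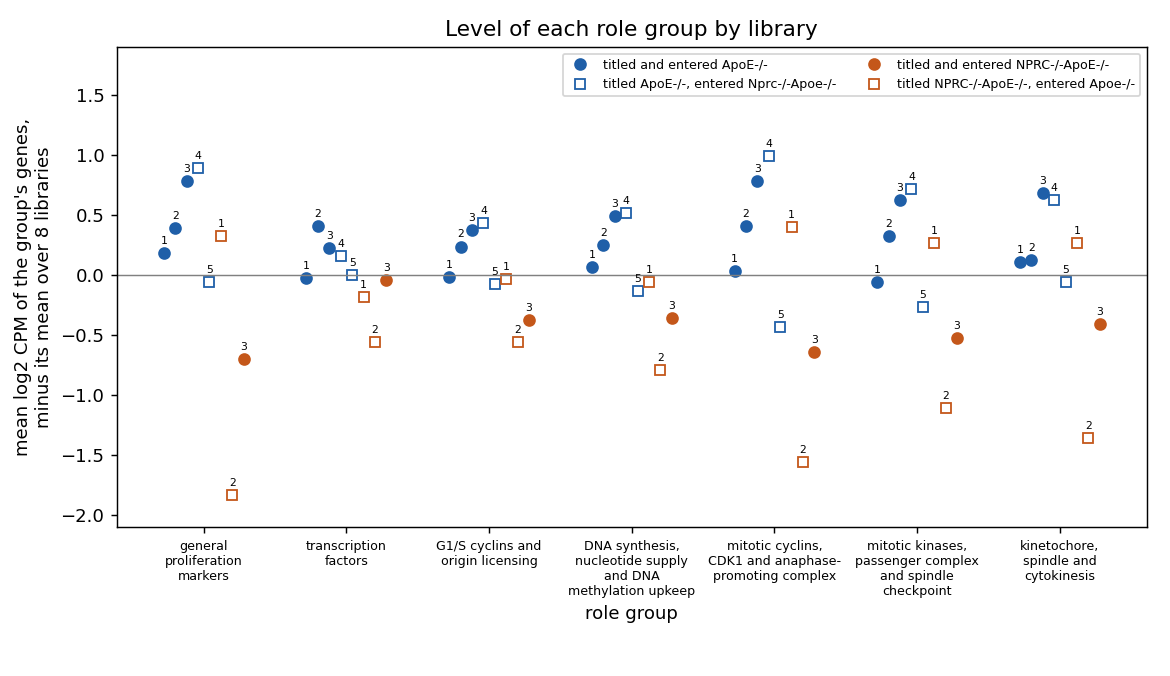
Mean log2 CPM of the genes of each role group minus its mean over 8 libraries, with 1 point per library, numbered within the title, blue for titled ApoE-/- and orange for titled NPRC-/-ApoE-/-, and open squares where the genotype entry differs from the title. The spread is widest for the general markers and the mitotic groups, and NPRC-/-ApoE-/- 2 is lowest in all 7.

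Compared by title, all 40 genes had a lower fitted level in NPRC-/-ApoE-/- than in ApoE-/- aortas, but none passed the test after adjustment. The median log2 fold change was -0.67 (range -1.13 to -0.02), beside -0.01 over all 31983 loci, of which 51% were negative. As most of the 40 genes went up and down together, they are not 40 separate observations. Genes below an unadjusted p of 0.05 and lower numbered 15 of 40, beside 7.16% of all loci, and 0 were higher, beside 5.72% (edgeR's quasi-likelihood test). No gene had an adjusted p under 0.05, as was the case for 0% of all loci by edgeR, and the smallest adjusted p was 0.292. DESeq2, limma on FPKM and limma voom with sample weights also gave 0 adjusted calls among the 40, with 18, 17 and 28 genes below an unadjusted p of 0.05. These fits also called more or fewer of all 31983 loci at that p, in either direction. The loci numbered 4972 in DESeq2, 4046 in limma on log2(FPKM + 1), 4134 on log2(FPKM + 0.1) and 6187 in limma voom, against 4121 in edgeR. Over all loci DESeq2 had 1030 adjusted calls. The criterion of the study, a difference of at least 2-fold with an unadjusted p under 0.05, was met by 4 genes that were lower, Kif23, Bub1b, Rrm2 and Top2a, beside 3.74% of all loci, and by 0 that were higher, beside 1.67%. In 6 genes (Kif23, Mcm2, Bub1b, Rrm1, Foxm1 and Mcm7) all 3 libraries titled NPRC-/-ApoE-/- were below all 5 titled ApoE-/-, beside 4.09% of all loci.

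Single libraries decided how many genes were below the unadjusted threshold. Without NPRC-/-ApoE-/- 2 the 15 became 2 with a median log2 fold change of -0.42, and without NPRC-/-ApoE-/- 1 they became 27 with -0.96. Without ApoE-/- 2 they were 8, and without ApoE-/- 3, ApoE-/- 4 or NPRC-/-ApoE-/- 3 they were 6 each. Calls over all loci moved with the same libraries. Below that threshold in either direction were 4121 of 31983 loci with all libraries. They were 2133 of 32104 without NPRC-/-ApoE-/- 2 and 6136 of 31925 without NPRC-/-ApoE-/- 1. Without ApoE-/- 2, 3 or 4 or NPRC-/-ApoE-/- 3 they were 3161, 3150, 3282 and 2275. NPRC-/-ApoE-/- 2 was below the range of the libraries titled ApoE-/- in 39 genes and NPRC-/-ApoE-/- 3 in 27, whereas NPRC-/-ApoE-/- 1 was inside that range in 30 genes, below it in 9 and above it in 1.

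**Figure D4:**
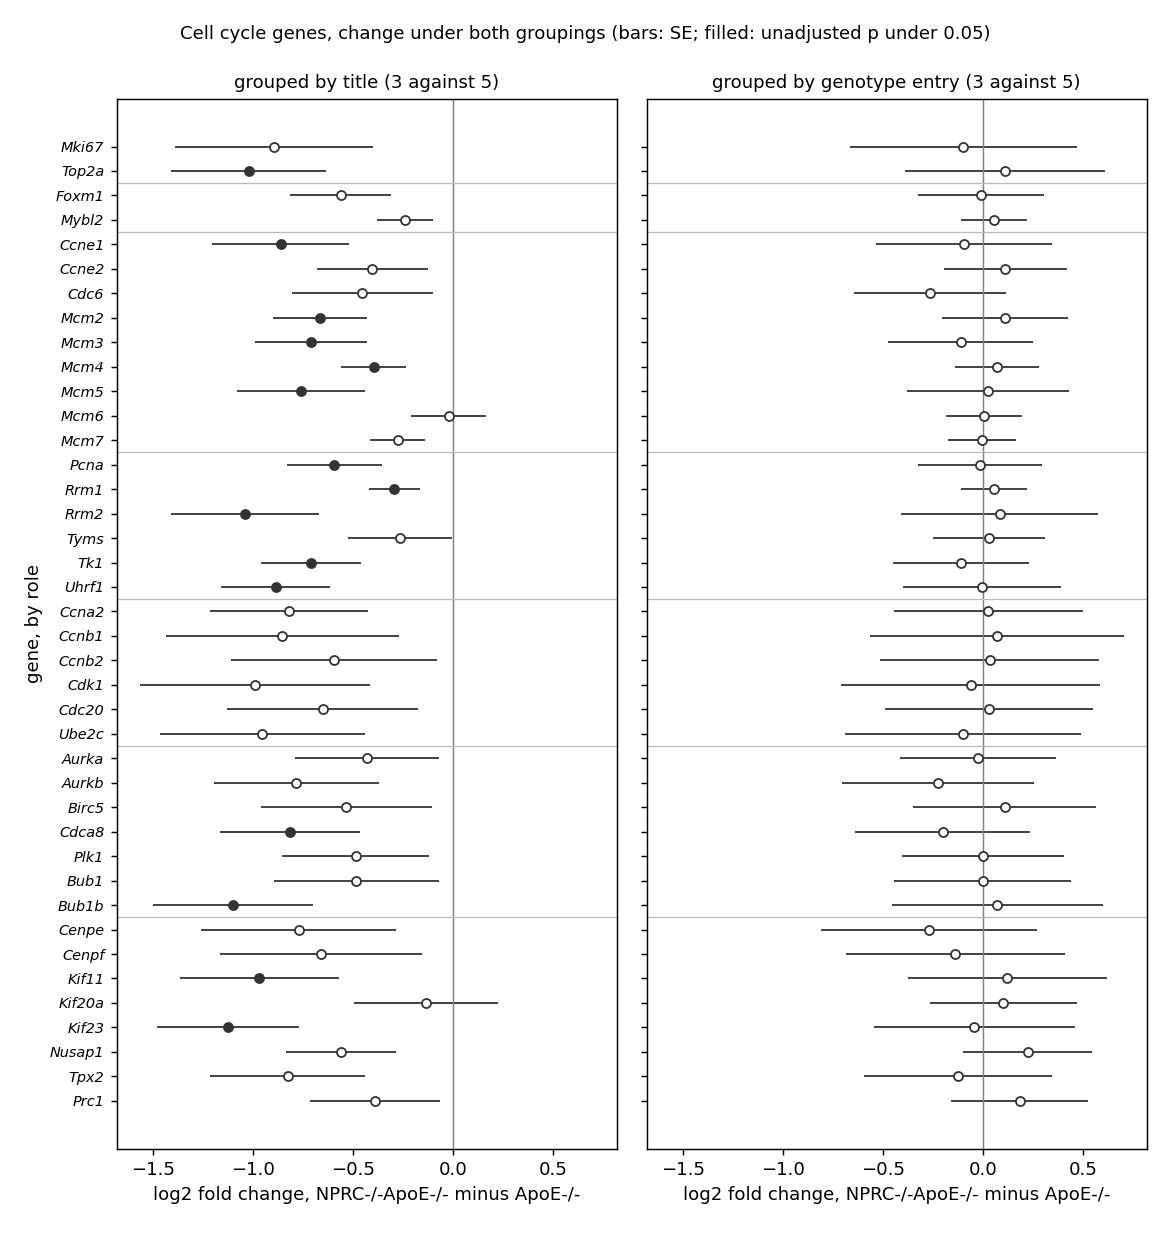
Log2 fold change of each of the 40 genes from edgeR with its standard error, NPRC-/-ApoE-/- minus ApoE-/-, by title on the left and by genotype entry on the right, with filled points for an unadjusted p under 0.05. All 40 points are below 0 by title and 15 are filled, while by genotype entry 19 are below 0, 21 above and none is filled.

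Of the 15 genes below the unadjusted threshold by title, 10 were genes of G1/S, licensing and DNA synthesis, and the difference between role groups was not tested. Below the unadjusted threshold were 5 of 9 genes of G1/S cyclins and licensing and 5 of 6 of DNA synthesis, against 1 of 2 general markers, 2 of 7 mitotic kinase and checkpoint genes, 2 of 8 of kinetochore and spindle, 0 of 6 mitotic cyclin genes and 0 of 2 transcription factors, beside 7.16% of all loci that were lower. The mitotic cyclin group nevertheless had a larger median log2 fold change (-0.84) than licensing (-0.46) or DNA synthesis (-0.65), and its libraries were spread more widely within both titles.

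Among the general markers, Top2a was measured at 18.6, 22.1, 28.7, 30.9 and 18.8 CPM in ApoE-/- 1 to 5 and at 19.1, 5.11 and 10.9 CPM in NPRC-/-ApoE-/- 1 to 3. NPRC-/-ApoE-/- 1 lay among the ApoE-/- libraries and the other two lay below them. The log2 fold change of Top2a was -1.02 (SE 0.39, unadjusted p = 0.0273, adjusted p = 0.344 by edgeR). Mki67 stood at 17.5, 19.7, 25.9, 28 and 12.3 CPM and at 20.7, 3.81 and 8.79 CPM in the same order, a log2 fold change of -0.90 (SE 0.50, adjusted p = 0.472 by edgeR). The groups overlapped for both genes.

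Of the transcription factors, Foxm1, the forkhead activator of mitotic genes, had 6.3, 9.75, 7.38, 6.31 and 6.58 CPM in ApoE-/- 1 to 5 and 5.33, 3.25 and 6.15 CPM in NPRC-/-ApoE-/- 1 to 3. The groups of Foxm1 did not overlap, though the gap between 6.15 and 6.3 CPM was narrow, and the log2 fold change was -0.56 (SE 0.25, adjusted p = 0.39 by edgeR). Mybl2, which encodes B-Myb, differed by -0.24 on the log2 scale (SE 0.14).

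In the licensing group the cyclin E and helicase genes had log2 fold changes by title of unlike size. Mcm2, a subunit of the MCM helicase, was at 7.23, 12.1, 12.1, 13.9 and 8.32 CPM in ApoE-/- 1 to 5 and at 6.91, 6.53 and 6.8 CPM in NPRC-/-ApoE-/- 1 to 3. The 3 values of the second group lay close together and below every ApoE-/- library, and the log2 fold change was -0.67 (SE 0.23, unadjusted p = 0.0189, adjusted p = 0.328 by edgeR). Mcm3, Mcm5 and Mcm4, with log2 fold changes of -0.71, -0.76 and -0.40, were also below the unadjusted threshold, and Mcm7 (-0.28) was not. Mcm6 had a log2 fold change of -0.02 (SE 0.19), the smallest of the 40 genes, with 37.6 CPM in NPRC-/-ApoE-/- 2, where most other members were lowest. The 6 helicase genes thus spanned log2 fold changes from -0.76 to -0.02 by title, and the differences between them were not tested.

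Ccne1, which encodes cyclin E1, was low throughout, at 0.985, 1.51, 2.04, 1.45 and 1.14 CPM in ApoE-/- 1 to 5 and 1.02, 0.5 and 0.817 CPM in NPRC-/-ApoE-/- 1 to 3. Its groups overlapped through NPRC-/-ApoE-/- 1, and the log2 fold change was -0.86 (SE 0.34, unadjusted p = 0.0324, adjusted p = 0.352 by edgeR). Ccne2, for cyclin E2, had -0.41 (SE 0.28), and Cdc6, the loader of the helicase, -0.46 (SE 0.35).

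In the DNA synthesis group the smallest p of the 40 genes belonged to Uhrf1, which carries DNA methylation marks over to the new strand. Uhrf1 (chromosome 17 from 56303321 to 56323486, plus strand, GRCm38) had 5.56, 8.03, 9.49, 8.91 and 6.79 CPM in ApoE-/- 1 to 5 and 5.94, 3.11 and 3.51 CPM in NPRC-/-ApoE-/- 1 to 3. NPRC-/-ApoE-/- 1 was above ApoE-/- 1, so the groups overlapped, and the log2 fold change was -0.89 (SE 0.27, unadjusted p = 0.00998, adjusted p = 0.292 by edgeR). Rrm2, the regulated subunit of ribonucleotide reductase, had 3.71, 4.97, 8.31, 7.83 and 3.99 CPM and 3.94, 1.81 and 2.63 CPM, a log2 fold change of -1.04 (SE 0.37, adjusted p = 0.329 by edgeR). Rrm1, its partner subunit, moved over a narrower range, from 26 to 32.7 CPM by title ApoE-/- and from 21.8 to 25.5 CPM by title NPRC-/-ApoE-/-, and these ranges did not overlap.

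Pcna was at 28.5, 38.9, 44.1, 47.5 and 24.7 CPM in ApoE-/- 1 to 5 and at 28.7, 20.9 and 23.3 CPM in NPRC-/-ApoE-/- 1 to 3. NPRC-/-ApoE-/- 1 was above ApoE-/- 1 and 5, and the log2 fold change was -0.60 (SE 0.24, unadjusted p = 0.0338, adjusted p = 0.354 by edgeR). The thymidine kinase Tk1 had a log2 fold change of -0.71 (SE 0.25) and the thymidylate synthase Tyms -0.27 (SE 0.26), of which Tk1 was below the unadjusted threshold.

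The mitotic cyclin group had large differences with large errors. Ccnb1 was at 2.27, 3.14, 3.57, 5.69 and 2.25 CPM in ApoE-/- 1 to 5 and at 3.95, 0.875 and 0.768 CPM in NPRC-/-ApoE-/- 1 to 3. NPRC-/-ApoE-/- 1 thus had more Ccnb1 than 4 of the 5 ApoE-/- libraries while the other two had less than any, and the log2 fold change was -0.86 (SE 0.58, adjusted p = 0.556 by edgeR). Cdk1 (chromosome 10 from 69335146 to 69352938, minus strand) was split in a like way, with 2.73, 3.54, 6.1, 6.71 and 1.89 CPM and 4.03, 0.922 and 1.35 CPM, a log2 fold change of -0.99 (SE 0.58, adjusted p = 0.492 by edgeR). Ccna2, Ccnb2, the activator Cdc20 and Ube2c had log2 fold changes of -0.82, -0.60, -0.65 and -0.96, none below the unadjusted threshold.

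Among mitotic kinases, Plk1, the Polo-like kinase, was at 1.9, 2.59, 3.74, 3.11 and 1.83 CPM in ApoE-/- 1 to 5 and at 2.54, 0.969 and 2.11 CPM in NPRC-/-ApoE-/- 1 to 3. Only NPRC-/-ApoE-/- 2 was outside the range of the other group, and the log2 fold change was -0.49 (SE 0.37, adjusted p = 0.593 by edgeR). Birc5, which encodes survivin of the chromosomal passenger complex, was at 1.6, 1.84, 2.6, 2.89 and 1.19 CPM and at 2.02, 0.625 and 1.54 CPM in the same order, again with NPRC-/-ApoE-/- 2 alone outside (log2 fold change -0.53, SE 0.43). Bub1b, for the checkpoint kinase BUBR1, had -1.10 (SE 0.40, adjusted p = 0.332 by edgeR) and its groups did not overlap. The passenger protein Cdca8 had -0.82 (SE 0.35), Aurkb -0.79 (SE 0.41), Bub1 -0.48 (SE 0.41) and Aurka -0.43 (SE 0.36).

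In the spindle group Kif23, the kinesin of the central spindle in cytokinesis, had the most negative log2 fold change of the 40 genes. Kif23 (chromosome 9 from 61915905 to 61946774, minus strand) was at 3.17, 4.59, 4.17, 4.05 and 3.72 CPM in ApoE-/- 1 to 5 and at 2.99, 0.938 and 1.47 CPM in NPRC-/-ApoE-/- 1 to 3. Its groups did not overlap, and the log2 fold change was -1.13 (SE 0.36, unadjusted p = 0.0115, adjusted p = 0.298 by edgeR). The spindle motor Kif11 had -0.97 (SE 0.40), the spindle assembly factor Tpx2 -0.83 (SE 0.39), Cenpe -0.77 (SE 0.49), Cenpf -0.66 (SE 0.51), the microtubule binder Nusap1 -0.56 (SE 0.27), the bundling protein Prc1 -0.39 (SE 0.32) and the kinesin Kif20a -0.14 (SE 0.36). Of these 7 only Kif11 was below the unadjusted threshold.

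Compared by genotype entry, the same 40 genes showed no common direction. Fitted levels were lower in Nprc-/-Apoe-/- for 19 genes and higher for 21, with a median log2 fold change of 0.00194, beside -0.00401 over all loci. None was below an unadjusted p of 0.05, beside 0.804% of all loci lower and 1.14% higher, and the smallest p was 0.499. None had an adjusted p under 0.05 by edgeR, with 0% of all loci, or by DESeq2 or limma. None met the criterion of the study, beside 0.463% of all loci lower and 0.754% higher. The 3 libraries entered as Nprc-/-Apoe-/- are the library with the highest mean level of the 40 genes, ApoE-/- 4, and those ranked sixth and seventh, ApoE-/- 5 and NPRC-/-ApoE-/- 3. The lowest library, NPRC-/-ApoE-/- 2, is entered as Apoe-/-.

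The members with the smallest p by genotype entry show how wide the groups were. Cdc6 was at 2.33, 1.36, 1.47, 1.96 and 0.922 CPM in the 5 libraries entered as Apoe-/- (ApoE-/- 1 to 3, then NPRC-/-ApoE-/- 1 and 2) and at 1.74, 1.49 and 0.78 CPM in those entered as Nprc-/-Apoe-/- (ApoE-/- 4 and 5, then NPRC-/-ApoE-/- 3). The groups overlapped from 0.922 to 1.74 CPM, with a log2 fold change of -0.27 (SE 0.38, adjusted p = 1 by edgeR). Nusap1 had 2.11, 2.35, 2.5, 2.19 and 1.14 CPM and 3.34, 2.15 and 1.72 CPM in the same order, a log2 fold change of 0.22 (SE 0.32). Cenpe (-0.27, SE 0.54) and Aurkb (-0.23, SE 0.48) were the next genes on the lower side, and Prc1 (0.18, SE 0.34) and Ccne2 (0.11, SE 0.31) on the higher side.

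Aurkb, the catalytic kinase of the passenger complex, had 1.85, 2.59, 4.03, 2.51 and 1.03 CPM in the libraries entered as Apoe-/- and 3.38, 1.64 and 1.15 CPM in those entered as Nprc-/-Apoe-/-. Cenpe had 2.06, 2.41, 4.23, 2.84 and 0.719 CPM and 3.34, 1.55 and 1.19 CPM, and Prc1 8.94, 7.24, 12, 9.72 and 3.59 CPM and 11.6, 8.13 and 8.54 CPM. Ccne2 had 4.79, 4.91, 3.64, 5.35 and 2.59 CPM and 6.07, 4.74 and 2.99 CPM. In all 4 genes the lowest of the 8 libraries was NPRC-/-ApoE-/- 2, which by this label is an Apoe-/- library.

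In the 4 libraries whose title and genotype entry name the same genotype, ApoE-/- 1 to 3 and NPRC-/-ApoE-/- 3, only values can be given because the second group is a single library. All 40 genes were lower in NPRC-/-ApoE-/- 3 than the mean of the other 3 libraries, beside 16204 of 31983 loci. The median log2 difference of the 40 genes was -0.70, beside -0.01 over all loci. The differences were -1.91 for Ccnb1, -1.51 for Cdk1, -1.41 for Kif23 and -1.24 for Mki67, and at the other end -0.02 for Mcm6, -0.09 for Kif20a and -0.11 for Prc1.

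A further 73 genes of the cell cycle were on lists drawn up for comparison. By title 13 of the 73 were lower, beside 7.16% of all loci, and 1 was higher, beside 5.72%, at an unadjusted p under 0.05 (edgeR), with a median log2 fold change of -0.35. By genotype entry 1 was lower, beside 0.804%, and 0 were higher, beside 1.14%. Of 7 G1 cyclins and kinases 1 was lower by title, of 7 CDK inhibitors 2, of 18 genes of the RB, E2F and DREAM proteins 4, of 16 licensing and firing genes 1 and of 25 checkpoint and spindle genes 5, with Anln, the gene that was higher, in the last list. No gene of the 73 had an adjusted p under 0.05 by edgeR.

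Ccnd1, which encodes cyclin D1, the G1 cyclin that answers to growth factors, was at 42.9, 60, 65.7, 68 and 34.7 CPM in ApoE-/- 1 to 5 and at 31.1, 15.2 and 24.2 CPM in NPRC-/-ApoE-/- 1 to 3. Its groups did not overlap, NPRC-/-ApoE-/- 1 included, and the log2 fold change by title was -1.21 (SE 0.30, unadjusted p = 0.00291, adjusted p = 0.251 by edgeR), which passed the adjusted threshold in DESeq2 (adjusted p = 0.00765) and in no other alternative. E2f7, an atypical E2F repressor, was at 2.25, 2, 2.7, 2.38 and 2.15 CPM and at 1.36, 1.23 and 1.51 CPM, without overlap, with -0.74 by title (SE 0.20, adjusted p = 0.265 by edgeR and 0.0235 by DESeq2). Cdkn1a, which encodes the inhibitor p21, was at 24.1, 49.8, 48.6, 59.1 and 19.1 CPM and at 42.3, 25.3 and 17.6 CPM, with overlapping groups and a log2 fold change of -0.50 (SE 0.42). Anln, for the cytokinetic scaffold anillin, was the only one of the 73 that was higher at an unadjusted p under 0.05, at 26, 28.5, 40.4, 38 and 31.6 CPM and at 34.7, 51.3 and 63.8 CPM (0.60, SE 0.22, adjusted p = 0.332 by edgeR). E2f6, another repressor of the family, had the next smallest p on that side, with 10.6, 10.9, 10.5, 9.71 and 8.97 CPM and 15.8, 12.6 and 10.4 CPM, overlapping groups and a log2 fold change of 0.35 (SE 0.17) by title.

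Marker genes of the cell types of the aorta also differed between the libraries. The 8 macrophage markers summed to 1870, 2470, 3690, 3830 and 1390 CPM in ApoE-/- 1 to 5 and to 2070, 1030 and 954 CPM in NPRC-/-ApoE-/- 1 to 3. The largest part of the sum in every library is Lyz2, which encodes a lysozyme, at 993, 1490, 2400, 2600 and 704 CPM and at 1260, 454 and 367 CPM. Lyz2 exceeds the other markers together in all libraries but NPRC-/-ApoE-/- 2 and 3. From high to low the sum has the order of the mean level of the 40 genes, except that NPRC-/-ApoE-/- 2 and 3 change places. By title 7 of the 8 markers had a negative log2 fold change and 3 of them, Csf1r (-0.93), Mrc1 (-0.63) and Fcgr1 (-1.46), were below an unadjusted p of 0.05 (edgeR), beside 7.16% of all loci. Adgre1, a defining gene, had a mean of 109.5 against 54.24 CPM and was not below it. By genotype entry 0 of the 8 were below it in either direction, with a median log2 fold change of -0.16. The part of macrophages in the level of the 40 genes was not tested.

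The 8 smooth muscle markers summed to between 6100 and 8090 CPM in the libraries titled ApoE-/- and to 7720, 12500 and 14700 CPM in NPRC-/-ApoE-/- 1 to 3. All 8 were higher by title at an unadjusted p under 0.05 (edgeR), beside 5.72% of all loci, with log2 fold changes of 0.84 for Myh11 and 0.61 for Acta2. By genotype entry 0 of the 8 were below that threshold, with a median log2 fold change of 0.16. NPRC-/-ApoE-/- 2 and 3, the libraries with the least of the 40 genes, were those with the most smooth muscle transcripts, and NPRC-/-ApoE-/- 1 lay inside the ApoE-/- range for both. The 8 endothelial markers were nearly level, from 1230 to 1490 CPM and from 1290 to 1350 CPM. More smooth muscle cells and more of these transcripts per cell cannot be told apart, and the part of either in the comparison by title was not tested.

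**Figure D5:**
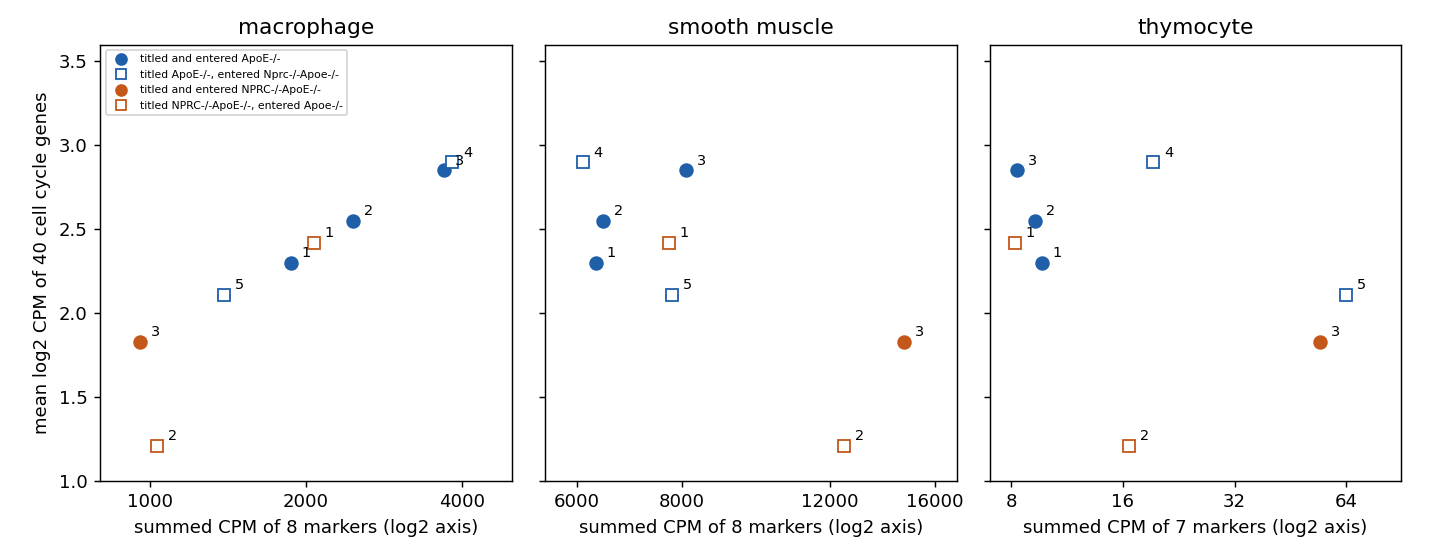
Mean log2 CPM of the 40 genes (vertical) against the summed CPM of macrophage, smooth muscle and thymocyte markers (horizontal, log2 axes), with 1 point per library, numbered within the title and coloured by title. Libraries with more macrophage transcripts (954 to 3830 CPM) have more of the 40 genes, NPRC-/-ApoE-/- 2 and 3 stand alone at 12500 and 14700 CPM of smooth muscle markers, and the thymocyte sums follow neither.

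Lymphoid, blood, fat and skeletal muscle markers did not rank the libraries as the 40 genes did. The 7 thymocyte markers, which belong to a tissue with many dividing cells, summed to 63.7 CPM in ApoE-/- 5 and 54.2 CPM in NPRC-/-ApoE-/- 3, against 8.19 to 19.3 CPM in the other 6 libraries. Rag1, a defining gene, made up 40.3 CPM of the first sum and 33.4 CPM of the second. Ptcra, the other defining gene, had a mean of 0.00938 CPM by title ApoE-/- and 0.0639 CPM by title NPRC-/-ApoE-/-. With a mean of 2.5 counts per library, Ptcra was too low to be tested. By genotype entry 5 of the 6 thymocyte markers tested were higher at an unadjusted p under 0.05 (edgeR), beside 1.14% of all loci, with a median log2 fold change of 1.97, and by title 0 were below that threshold. Both libraries were among the 3 with the least of the 40 genes, and both are entered as Nprc-/-Apoe-/-. T cell markers summed to between 14.5 and 32.7 CPM by title ApoE-/- and between 9.11 and 19.2 CPM by title NPRC-/-ApoE-/-. All 8 had a negative log2 fold change by title, with a median of -0.911. Of these, 3 were below an unadjusted p of 0.05 (edgeR), beside 7.16% of all loci that were lower. By genotype entry 0 were below it in either direction. B cell markers summed to between 8.78 and 98.8 CPM, the highest in ApoE-/- 2, and between 4.55 and 18.6 CPM. All 8 had a negative log2 fold change by title (median -1.51) and by genotype entry (median -1.83). By title 0 were below an unadjusted p of 0.05 (edgeR). By genotype entry 2 were lower at that threshold, beside 0.804% of all loci, and 2 met the criterion of the study, beside 0.463%. ApoE-/- 2 is an Apoe-/- library under either label. Erythroid markers summed to 472 to 3940 CPM and 311 to 1420 CPM. Klf1, a defining gene, had a mean of 0.0571 and 0.0390 CPM and, at 4 counts per library, was too low to be tested. Brown fat markers summed to 253 to 926 CPM and 698 to 940 CPM, and white fat markers to 358 to 1190 CPM and 514 to 895 CPM. Skeletal muscle markers summed to 42.6, 3.46, 3.74, 2.73 and 53.1 CPM in ApoE-/- 1 to 5. In NPRC-/-ApoE-/- 1 to 3 they summed to 49.3, 49.2 and 37.3 CPM. ApoE-/- 2, 3 and 4, with the least skeletal muscle transcripts, were the libraries with the highest mean level of the 40 genes. The part of these tissues in the level of the 40 genes was not tested.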

How the data were processed

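RNA-seq of entire mouse aortas was analysed from the deposited table of assembled loci in 8 libraries. The authors trimmed the reads (cutadapt 1.9 and FastQC, per the submitters' processing notes, genome build GRCm38), aligned them by HISAT2 and built loci by StringTie. They deposited whole-number counts per locus, without normalization, and FPKM values, which the authors scaled to transcript length and mapped fragments. How the assembly was counted, and whether strand was used, is not given in the sources used here. Of the value columns, 0 could not be tied to a library.

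Loci with a mean of at least 10 counts (31983) entered the quasi-likelihood test of edgeR 4.0.16 (R 4.3.3) after TMM scaling, and p-values were adjusted over all of them by the Benjamini-Hochberg method. Levels in CPM were computed from the counts with TMM-scaled library sizes, and log2 CPM with a prior count of 2. With 8 libraries the number of libraries limits the precision (biological coefficient of variation 0.435 by title and 0.472 by genotype entry). The p-values set the difference between groups against the spread between libraries of the same group. No 2 libraries agreed within sampling noise (smallest mean chi-square per locus 98.93). The scripts were tested on simulated data.

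The 40 genes, their role groups, the 73 other cell cycle genes and the marker lists (smooth muscle, endothelial, macrophage, T cell, B cell, thymocyte, erythroid, brown fat, white fat and skeletal muscle) were chosen with earlier results of these data known. Values in every library are given for 11 genes that represent the roles, for the 3 genes with the smallest p in each direction in each comparison, and for Ccnd1, Cdkn1a and the 2 other cell cycle genes with the smallest p in each direction by title. Promoters come from RefSeq and were matched by symbol, and TTTCCCGC was added to the motifs after the data were seen. DESeq2 1.42.0 and limma 3.58.1 were alternatives, besides another scaling, other filters, other pseudocounts, leaving out each library and adding up the loci of a symbol. A filter on the mean count was used because cell cycle transcripts are rare and some are long, and 21 of the 40 genes pass a filter of 1 FPKM in 3 libraries. GO and KEGG annotation columns of the table were not used.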

Additional observations from a re-analysis of the deposited data

Results flagged for a closer look

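Among the 5 libraries entered as Apoe-/-, NPRC-/-ApoE-/- 2 lay far below the others in 8 of the 40 genes, by the gap to the nearest library as a share of the range of the group. That share was 0.794 for Mki67, 0.75 for Top2a, 0.814 for Ube2c, 0.771 for Bub1b, 0.772 for Cenpf, 0.801 for Kif11, 0.726 for Kif23 and 0.779 for Nusap1, where 0.71 is Dixon's critical value for 5 samples. The mean levels of the general proliferation markers (0.775) and of the kinetochore, spindle and cytokinesis genes (0.721) showed the same library at the low end. All these genes belong to the general markers or to mitosis, and none to DNA replication. By title the same library is 1 of 3 in its group, and groups of 3 were not examined in this way.

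Of the libraries titled ApoE-/-, ApoE-/- 5 stood apart at the low end for Tk1 (0.757) and ApoE-/- 2 at the high end for the summed B cell markers (0.771). Among those entered as Apoe-/-, NPRC-/-ApoE-/- 2 was apart at the high end for the summed thymocyte markers (0.762) and ApoE-/- 3 at the low end for the summed brown fat markers (0.76). In all, 14 of 116 groups of 5 were past the critical value, where chance gives about 1 in 20, and the 40 genes are not independent of each other.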

How the results depend on the processing

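By title, all 24 named genes kept the sign of their log2 fold change under every alternative with a test, and the median over the 40 genes stayed negative, from -0.963 to -0.246. In the 4 libraries with 1 genotype in both labels, which allow no test, E2f6 turned to -0.0392 and the other named genes kept their sign. The number of the 40 genes lower at an unadjusted p under 0.05 was 28 in limma voom with sample weights, and ran from 2 to 27 when a library was left out. Over all loci, 6187 were below that p in either direction in limma voom, and from 2133 to 6136 when a library was left out. The number past the criterion of the study was 2 of the 21 genes that passed the filter of 1 FPKM. It was 0 in limma on log2(FPKM + 1) and 13 in limma voom. When a library was left out it ran from 0 (without NPRC-/-ApoE-/- 2 or 3) to 18 (without NPRC-/-ApoE-/- 1). How many of all loci met the criterion in these alternatives was not counted. The replicate numbers of the titles were not taken to pair the libraries, since same-numbered libraries did not deviate together (correlations -0.176, -0.0947 and 0.00165). A replicate block over numbers 1 to 3 gave 2 genes below the unadjusted threshold and 0 past the criterion, and the same 6 libraries without the block gave 7 and 1. Of all 31847 loci, 2887 with the block and 3935 without it were below the unadjusted threshold in either direction. Over all loci DESeq2 called 1030 by title and 32 by genotype entry at an adjusted p under 0.05, where edgeR called 0, and the cause was not tested. In DESeq2 Ccnd1 (-1.2) and E2f7 (-0.735) passed the adjusted threshold.

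By genotype entry no alternative brought any of the 40 genes past the adjusted threshold. Of 313 alternative values of the 19 named genes, 56 from fits with a test changed sign. Sign changes in the 4 libraries with 1 genotype in both labels, which allow no test, are not among the 56. In those 4 libraries all 40 genes were lower, beside 16204 of 31983 loci, with a median of -0.702. Signs turned for Uhrf1 under median-ratio scaling (0.00184) and DESeq2 (0.00181), for Plk1 under the FPKM filter (-0.00248), for Ccnb1 in limma on log2(FPKM + 1) (-0.0182) and log2(FPKM + 0.1) (-0.146), for Foxm1 in the latter (0.0159), and in limma voom for Top2a (-0.0649), Rrm2 (-0.0988), Ccnb1 (-0.538), Plk1 (-0.102), Birc5 (-0.176), Foxm1 (0.0262) and Ccne2 (-0.056). Leaving out each library in turn, the log2 fold change by genotype entry ran from -0.71 to 0.194 for Mki67, -0.313 to 0.402 for Top2a, -0.223 to 0.301 for Mcm2, -0.403 to 0.157 for Pcna, -0.433 to 0.417 for Rrm2, -0.283 to 0.177 for Ccne1, -1.07 to 0.302 for Cdk1, -0.857 to 0.509 for Ccnb1, -0.229 to 0.231 for Plk1 and -0.327 to 0.347 for Birc5. It ran from -0.17 to 0.19 for Foxm1, -0.298 to 0.285 for Uhrf1, -0.273 to 0.287 for Kif23, -0.484 to 0.000213 for Cdc6, -0.81 to 0.0156 for Cenpe, -0.764 to 0.0553 for Aurkb, -0.0692 to 0.408 for Nusap1, -0.00121 to 0.351 for Prc1 and -0.124 to 0.336 for Ccne2. Scaling by the total count alone, an alternative chosen after seeing the data, left every role group lower by title. The depth limits Ube2c most, with 10 counts in its lowest library.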
